A study of Mus musculus with 16 samples.

Results

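Non-additive effects of dexamethasone and lipopolysaccharide were measured in primary macrophages grown from mouse bone marrow, on all 8 arrays of the experiment with 6 h of LPS, out of 16 arrays in the series. The samples were chosen by their titles, with 4 treatments and 2 arrays each. One pair of arrays came from cells given ethanol, the vehicle, and left unstimulated. A second pair received 1 µM dexamethasone (Dex), a synthetic glucocorticoid, overnight. The LPS pair was given 6 h of lipopolysaccharide (LPS), a component of the outer membrane of Gram-negative bacteria, without Dex, and the last pair received Dex overnight and then LPS. All cells were from wildtype male C57BL/6J mice aged 10 weeks, and the labels call the arrays of a pair technical replicates, so the p-values measure the spread between arrays and not between cultures or animals. RNA was taken from whole cultures, in which fewer cells of a type and less RNA per cell cannot be told apart.

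Glucocorticoids act through the glucocorticoid receptor, a transcription factor that moves to the nucleus when it binds its ligand, raises genes near its DNA elements and represses many genes driven by NF-kB and AP-1. LPS is sensed by Toll-like receptor 4 (TLR4), which activates NF-kB, AP-1 and interferon regulatory factors and turns on cytokine, chemokine and interferon genes in macrophages. Both pathways meet on the same chromatin, so the response to one agent can depend on the other.

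The question addressed was whether the effect of Dex on a gene differed between cells with and without LPS. The measure, called the interaction here, was the log2 difference between Dex plus LPS and LPS minus the log2 difference between Dex and ethanol. It is 0 where the fold changes of the 2 agents multiply (the additive expectation on the log2 scale), positive where the level with both agents lay above that expectation and negative where it lay below. To be called, a gene needed an interaction of at least 2-fold with an adjusted p under 0.05. Values are log2 differences ± SE with n = 2 arrays a group unless a deposited signal or a fold is named. Signals are the deposited intensities, which still hold background and array brightness, so the fitted differences can depart from ratios of the signals.

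Of 25697 probes, 10407 to 11281 were above background per array, and the median signal was 154 to 189. Precision is limited by the small number of arrays. Arrays of a pair correlated at 0.984 (Dex), 0.988 (ethanol), 0.993 (LPS) and 0.995 (Dex plus LPS), and the median difference between them was 0.27, 0.23, 0.16 and 0.15 on the log2 scale. The 2 pairs without LPS were thus the noisier ones, and the median SE of the interaction was 0.29. All 7 macrophage markers with a probe, Cd14, Csf1r and Adgre1 among them, were detected on all 8 arrays, as were 7 of 7 neutrophil and granule markers such as S100a8, S100a9 and Mpo, whose summed signal ran from 43915 to 59788 in the ethanol pair, 55381 to 59384 in the Dex pair, 48183 to 51783 in the LPS pair and 47415 to 51681 with both. Their part in the results was not tested. Markers of T cells (0 of 5), natural killer cells (0 of 4) and mast cells (0 of 3) were detected on no array. Of the stromal markers Dcn was detected on all 8 arrays and the other 5 on none. Of the B cell markers Cd79b was detected on 5 arrays, and Ms4a1 and Pax5 on none. Of the dendritic cell markers Ccr7 was detected on 2 arrays, and Flt3, Itgax, Xcr1 and Zbtb46 on none. Of the erythroid markers Hba-a1 was detected on 1 array and Alas2 on none.

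The interaction was called for 43 of 7796 genes tested (0.552%), of which 14 lay above the additive expectation (0.180%) and 29 below it (0.372%). At an unadjusted p under 0.05 there were 715 genes above (9.17%) and 562 below (7.21%), and the median over all genes was 0.06. The share above the expectation among the calls was 32.6%. It was 16.3% when arrays were scaled by their medians instead of their quantiles (15 above and 77 below), which moved the median of all genes by -0.14, and 19.5% in the authors' processed values (17 and 70). For a gene near background or near the top of the scanner's range even the sign can be unsafe. A sign was therefore taken as settled above the expectation only where the ethanol and the Dex plus LPS arrays detected the gene and the Dex and LPS arrays were not saturated, and below it only where the Dex and the LPS arrays detected it and the other pairs were not saturated. This held for 24 of the 43 called genes (0.308% of all tested), 9 above (0.115%) and 15 below (0.192%), and 21 of the 24 were detected on every pair of arrays. Of all 7796 tested genes, called or not, 6703 had a settled sign and 6371 were detected on every pair. A settled sign was thus less common among the calls than among all genes. Synergy and antagonism are described for these 24 alone.

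Among the 15 genes below the expectation, 11 rose with LPS alone and rose less, did not rise or fell with LPS after Dex. These were Vcam1, Klf4, Kat2b, Slc28a2, Atp10a, Ccl2, Mex3c, Themis2, Zfp658, Gnb4 and Timeless. LPS after Dex was called lower in Klf4 alone (-1.20 ± 0.32), while Vcam1 gave -0.90 ± 0.22, under the 2-fold limit. Of the other 4, Fkbp5 rose with Dex alone and less under LPS, and Mtus1, Tlr8 and Hsbp1 were called with neither agent alone. Of the 9 genes above the expectation, 3 had an LPS fall that Dex eased (Tsc22d3, Mbp and Zfp94), 2 an LPS rise that was larger after Dex (Rasgrp1 and Rims3), 1 a Dex fall that was not called under LPS (Mterf1b), and 3 were called with neither agent alone (Rgcc, Radx and Ndufaf3). Genes are sorted by their LPS effect first, so Tsc22d3, whose Dex rise was also larger under LPS, stands with the eased LPS falls. None of the 24 had an LPS fall deepened by Dex or a Dex fall deepened by LPS. The single effects that sort the genes share arrays with the interaction. Over all genes LPS alone raised 8.30% and lowered 8.79%, and Dex alone raised 1.59% and lowered 1.90%. Under LPS, Dex raised 1.31% and lowered 2.45%. After Dex, LPS raised 6.68% and lowered 6.72%, and both agents against ethanol raised 6.85% and lowered 6.81%.

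**Figure D1:**
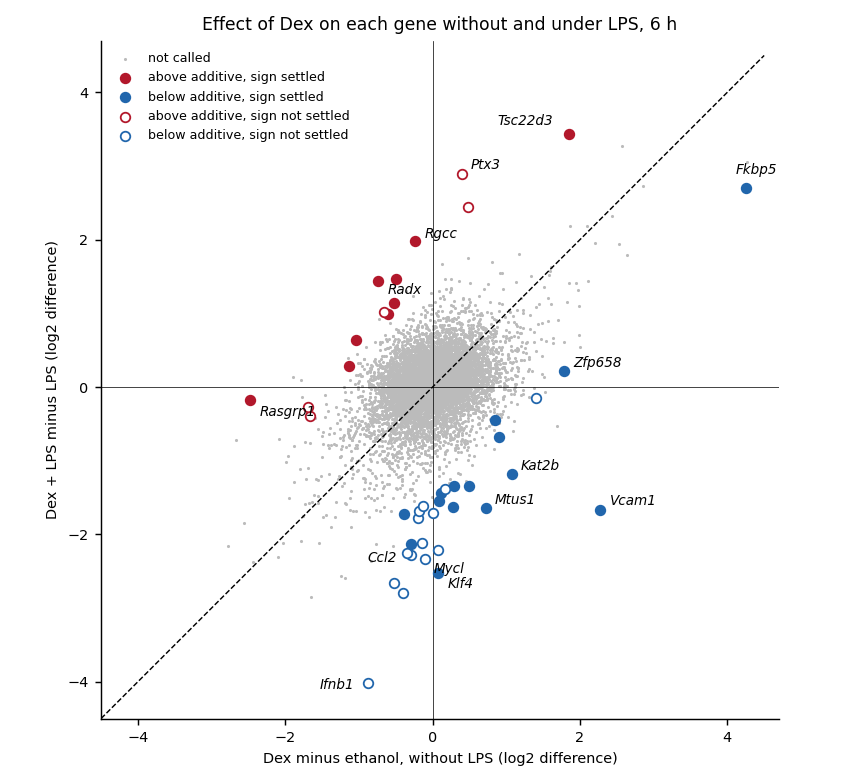
Effect of Dex on each of 7796 genes, as the log2 difference between Dex and ethanol (horizontal) and between Dex plus LPS and LPS (vertical). On the dashed line both are equal. Filled points are the 24 called genes with a settled sign and open points the 19 without. Vcam1, at 2.28 and -1.67, lies below the line at the lower right, Rgcc, at -0.23 and 1.98, above the line, and Fkbp5, at 4.26 and 2.70, below it although both of its values are positive. Axis values of different pairs of arrays share no array, but each gene's position against the line uses all 8.

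Strict synergy, with a level under both agents called beyond that of every other treatment, was found for 1 gene upward and 2 genes downward. Rgcc, which encodes a cell cycle regulator first described as a response gene to complement, was the upward one, and Klf4 and Mtus1 were the downward ones. Promoter sequences are shown for Rgcc, the gene with upward synergy, and for Klf4 and Kat2b (a gene with 2 windows, of which the first listed is given), which follow Vcam1 in the size of the interaction among the genes with a curbed LPS rise. Those of Vcam1 and Mtus1 are not shown. Each run is the 250 bases before the gene's start in RefSeq's GRCm38.p6 annotation, at chr14:79301636-79301885 on the minus strand for Rgcc, chr4:55532476-55532725 on the minus strand for Klf4 and chr17:53566721-53566970 on the plus strand for Kat2b. Capitals mark matches, on either strand, to 4 short patterns. These were the glucocorticoid receptor element ACANNNTGT, the AP-1 pattern TGANTCA, an NF-kB pattern of GGGA and CC with any 4 bases between them, and an interferon-stimulated response element of 2 GAAA runs with any 2 bases between them.
Rgcc: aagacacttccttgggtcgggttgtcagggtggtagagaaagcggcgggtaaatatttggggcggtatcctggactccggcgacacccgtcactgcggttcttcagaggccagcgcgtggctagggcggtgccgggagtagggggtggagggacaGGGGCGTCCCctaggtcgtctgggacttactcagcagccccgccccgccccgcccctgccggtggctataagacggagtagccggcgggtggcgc
Klf4: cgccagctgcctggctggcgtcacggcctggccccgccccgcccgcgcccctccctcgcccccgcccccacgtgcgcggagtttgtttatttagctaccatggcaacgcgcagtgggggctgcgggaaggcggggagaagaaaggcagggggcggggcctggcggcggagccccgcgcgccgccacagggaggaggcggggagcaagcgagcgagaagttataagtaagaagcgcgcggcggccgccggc
Kat2b: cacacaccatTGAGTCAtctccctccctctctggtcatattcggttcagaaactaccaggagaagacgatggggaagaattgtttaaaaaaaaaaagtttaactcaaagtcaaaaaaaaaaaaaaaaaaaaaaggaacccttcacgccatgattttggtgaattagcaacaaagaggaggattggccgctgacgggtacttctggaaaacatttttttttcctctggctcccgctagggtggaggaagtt

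The Rgcc window held 1 match to the NF-kB pattern, the Kat2b window 1 to the AP-1 pattern, and the Klf4 window none of the 4. A promoter was given for 13 of the 14 called genes above the expectation, 18 of the 29 below and 6449 of all 7796. The glucocorticoid receptor pattern was in 2 of the 13 (15.4%, Rims3 and Trem1), 0 of the 18 and 3.6% of all. The NF-kB pattern was in 23.1%, 27.8% and 21.7%, the AP-1 pattern in 15.4%, 16.7% and 4.64%, and the interferon pattern in 7.69%, 0% and 2.96%. Beside single windows these shares rest on 1 to 5 genes each and are a description only. The patterns do not overlap one another in the 3 windows shown.

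Vcam1 had the largest interaction of all tested genes. It encodes vascular cell adhesion molecule, a ligand of leukocyte integrins that also marks some tissue macrophages. Its deposited signal was 198 and 248 on the ethanol arrays, 923 and 552 with Dex, 917 and 948 with LPS and 391 and 489 with both. Either agent alone thus lifted it clear of the ethanol arrays, and the combination lay between these and the single treatments with no overlap. Dex alone raised it by 2.28 ± 0.22 and LPS alone by 3.04 ± 0.22, while Dex under LPS lowered it (-1.67 ± 0.22, adjusted p = 0.00155). The interaction was -3.95 ± 0.31 (adjusted p = 0.00105), a level 15.4-fold below the additive expectation. It was -4.34 and -3.55 from the first and the second replicates, and -4.28 to -3.62 over the 8 fits that each left out 1 array, in all of which the call held.

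Kat2b, which encodes the lysine acetyltransferase PCAF, was the only other gene in which Dex was called in opposite directions without and under LPS. Its signals were low, at 170 and 233 with ethanol (detected on 1 of the 2 arrays), 329 and 314 with Dex, 345 and 499 with LPS and 263 and 306 with both. Dex alone raised it by 1.08 ± 0.27 (adjusted p = 0.0393) and lowered it under LPS (-1.18 ± 0.27, adjusted p = 0.0252), both near the 2-fold limit. The interaction was -2.26 ± 0.38 (adjusted p = 0.0384), and it ranged from -2.64 to -1.62 with 1 array left out, with the call kept only in the fit without Dex replicate 2. A second Kat2b probe gave -1.44 ± 0.36, which was not called.

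Klf4, a zinc finger transcription factor of monocyte differentiation that glucocorticoids induce in some cells, gave signals of 340 and 671 with ethanol, 860 and 485 with Dex, 1089 and 1268 with LPS and 320 and 373 with both. The ethanol and Dex arrays spread widely and overlapped, the LPS arrays stood above them, and on the normalized scale the combination lay below all other arrays. LPS alone raised Klf4 by 1.41 ± 0.32, Dex alone changed it by 0.08 ± 0.32 (adjusted p = 0.905), and Dex under LPS lowered it to below the ethanol level (-2.53 ± 0.32, and -1.13 ± 0.32 against ethanol). The interaction was -2.61 ± 0.45 (adjusted p = 0.0424), or 6.09-fold below the expectation. Both other Klf4 probes were also called, at -1.90 ± 0.30 and -2.93 ± 0.33. With 1 array left out it was -3.08 to -2.14 and kept the call without ethanol replicate 2 or Dex replicate 2 only.

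Mtus1, which encodes a microtubule-associated scaffold protein, showed the same downward synergy without an LPS rise. Signals were 352 and 521 with ethanol, 925 and 735 with Dex, 598 and 504 with LPS and 295 and 292 with both, the lowest of the 4 pairs. Neither agent alone was called (0.73 ± 0.21 for Dex and 0.35 ± 0.21 for LPS), and both together lowered it against ethanol (-1.29 ± 0.21, adjusted p = 0.00143). Its interaction was -2.37 ± 0.30 (adjusted p = 0.00919), and a second probe gave -3.0 ± 0.28. Leaving out 1 array gave -2.57 to -2.16, and the call was lost without ethanol replicate 1, LPS replicate 1 or either Dex plus LPS array.

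Ccl2, the monocyte chemoattractant, was the brightest gene with a curbed LPS rise. The signal was 2400 and 2543 with ethanol, 3403 and 2036 with Dex, 15240 and 15172 with LPS, and 3155 and 4514 with both. LPS raised it by 2.31 ± 0.23 without Dex, while after Dex the LPS effect was 0.47 ± 0.23 (adjusted p = 0.151). Its interaction was -1.83 ± 0.32 (adjusted p = 0.0443). Ccl7, a family member that also attracts monocytes, had an interaction of -1.36 ± 0.27 and was not called (adjusted p = 0.0577).

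The nucleoside transporter gene Slc28a2 had signals of 408 and 555 with ethanol, 798 and 648 with Dex, 1758 and 2345 with LPS and 826 and 879 with both, and an interaction of -1.91 ± 0.28. Atp10a, a phospholipid flippase gene, was not above background on either ethanol array (170 and 203) and reached 249 and 214 with Dex, 567 and 562 with LPS and 297 and 392 with both (-1.84 ± 0.24, a size that depends on the undetected ethanol level). In both genes the LPS arrays stood alone at the top. Gnb4, a G protein subunit gene, followed the same order at lower contrast, with an LPS effect of 2.11 ± 0.18 without Dex and 0.56 ± 0.18 after it (interaction -1.55 ± 0.25). A second Gnb4 probe gave -1.07 ± 0.37 and was not called (adjusted p = 0.206).

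In 3 further genes LPS raised the level and Dex under LPS lowered it to near that of the ethanol arrays, from which the combination was not called different. Timeless, which stabilizes replication forks, went from 265 and 321 with ethanol to 613 and 597 with LPS and to 277 and 339 with both (-1.33 ± 0.23). Themis2, an adaptor of macrophage and B cell signalling, went from 749 and 1038 to 1652 and 2409 and to 789 and 985 (-1.63 ± 0.29). Mex3c, an RNA-binding ubiquitin ligase gene, moved within 180 to 330 on all arrays (-1.64 ± 0.29), close to the detection limit. For these genes Dex alone was not called (-0.39 ± 0.16, 0.09 ± 0.20 and 0.30 ± 0.21).

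Zfp658, a zinc finger protein gene, had another pattern. It rose to a like level with Dex alone (509 and 487, from 182 and 248), with LPS alone (366 and 344) and with both (425 and 505). Its Dex effect was 1.79 ± 0.20 without LPS and 0.22 ± 0.20 under it, and the interaction was -1.56 ± 0.28.

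**Figure D2:**
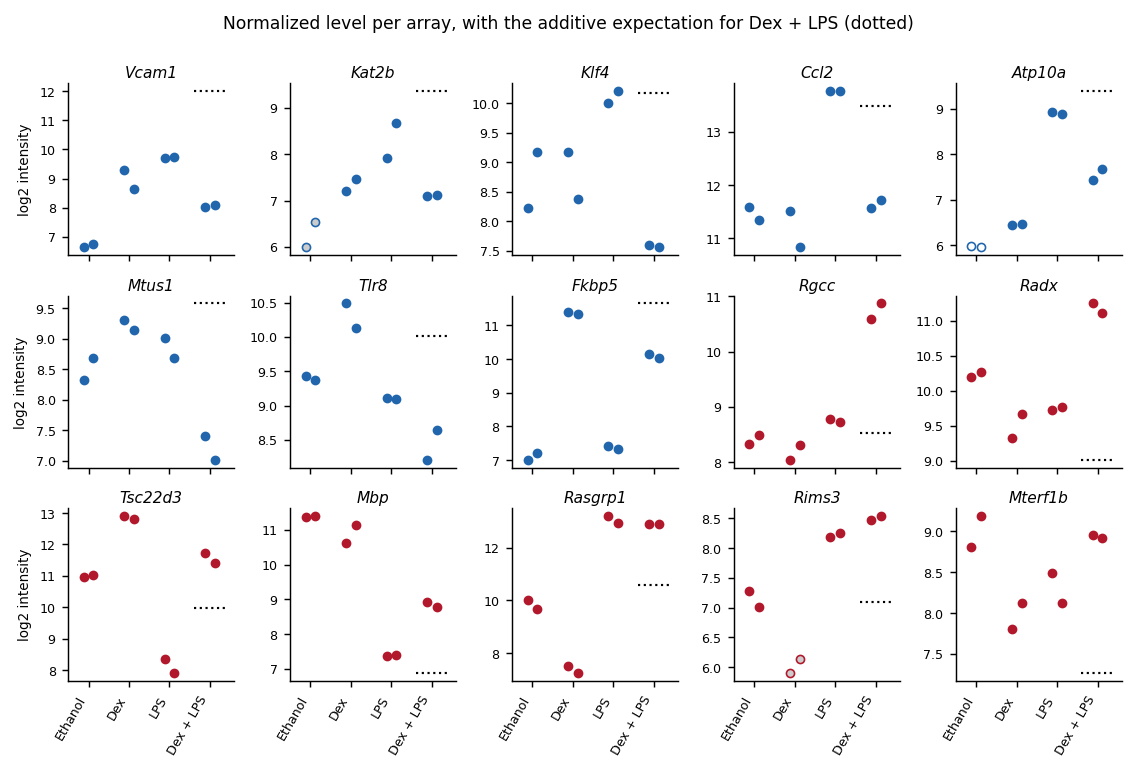
Normalized log2 intensity of 15 called genes with a settled sign on each of the 8 arrays, by treatment. Blue genes lie below and red genes above the additive expectation for Dex plus LPS, drawn as a dotted line. Filled points belong to pairs in which both arrays detected the gene, grey points to pairs in which 1 array did and white points to pairs in which neither did. In Vcam1 the Dex plus LPS arrays lie 3.95 below the line, and in Rgcc 2.21 above it.

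Fkbp5 encodes a co-chaperone that lowers the affinity of the glucocorticoid receptor for its ligand. Among genes with a settled sign and no called LPS effect alone, it was the only one with a called Dex rise that was smaller under LPS. It had signals of 218 and 283 with ethanol, 3147 and 2832 with Dex, 280 and 271 with LPS and 1272 and 1517 with both. Both Dex pairs stood far above the others, and the pair with LPS reached less than the pair without. LPS after Dex lowered it (-1.28 ± 0.17, adjusted p = 3.25e-04), whereas LPS alone gave 0.28 ± 0.17, and the interaction was -1.56 ± 0.24 (adjusted p = 0.0252). Its range with 1 array left out was -1.67 to -1.46, and the call was kept only without Dex replicate 2.

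Tlr8, an endosomal sensor of RNA, had signals of 1829 and 1292 with Dex against 620 and 752 with ethanol, 632 and 638 with LPS and 421 and 661 with both. By signal only the Dex pair without LPS stood apart. On the normalized scale the Dex plus LPS arrays also lay below all others. Their difference was -0.98 ± 0.20 from ethanol and -0.68 ± 0.20 from LPS alone, neither called. Dex alone gave 0.90 ± 0.20, under the 2-fold limit, and LPS after Dex lowered it (-1.88 ± 0.20, adjusted p = 9.3e-05), with an interaction of -1.59 ± 0.29. Hsbp1, whose product binds heat shock factor, was also highest with Dex alone (5181 and 4557, against 1845 and 2537 with ethanol, 3353 and 3225 with LPS and 2497 and 3166 with both), and its interaction was -1.30 ± 0.23. Dex changed Hsbp1 by 0.85 ± 0.16 without LPS and by -0.45 ± 0.16 under it, neither called.

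Above the expectation, Rgcc was flat under single treatments and high under both. Signals were 352 and 476 with ethanol, 473 and 466 with Dex, 524 and 515 with LPS, and 1677 and 2596 with both. Neither Dex alone (-0.23 ± 0.19) nor LPS alone (0.34 ± 0.19) was called, while Dex under LPS raised it by 1.98 ± 0.19, LPS after Dex by 2.56 ± 0.19 and both against ethanol by 2.32 ± 0.19. Its interaction was 2.21 ± 0.26 (adjusted p = 0.00682), or 4.64-fold above the expectation. With 1 array left out it was 2.07 to 2.36, and the call was lost without LPS replicate 1 or either Dex plus LPS array.

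Radx, which encodes a single-stranded DNA-binding protein of replication forks, was also highest under both agents, from a higher base. It gave 972 and 1284 with ethanol, 939 and 992 with Dex, 917 and 955 with LPS and 2556 and 3021 with both (interaction 2.17 ± 0.25, adjusted p = 0.00682). Unlike Rgcc it was lower under each single agent, by -0.74 ± 0.18 with Dex and -0.49 ± 0.18 with LPS, neither called. The combined level lay above all others but was under 2-fold over ethanol after normalization (0.95 ± 0.18), so it did not count as strict synergy. Of 2 other Radx probes, 1 was called (1.78 ± 0.31) and 1 was not (-0.04 ± 0.44).

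In Tsc22d3, whose product GILZ mediates part of the anti-inflammatory action of glucocorticoids, the 2 agents pulled in opposite directions. Signals were 1573 and 2103 with ethanol, 8241 and 7369 with Dex, 424 and 346 with LPS and 3523 and 3648 with both. The 4 pairs did not overlap. Dex raised it by 1.86 ± 0.20 without LPS and by 3.44 ± 0.20 under LPS, and LPS lowered it without Dex (-2.87 ± 0.20) and after Dex (-1.29 ± 0.20). The interaction was 1.58 ± 0.29 (adjusted p = 0.045). On the linear scale its sign turned, since Dex added more intensity units without LPS than with it (-2598 units), and a second probe at 0.73 ± 0.37 was not called.

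Mbp, the myelin basic protein gene, whose locus also makes transcripts of immune cells, fell with LPS (-4.0 ± 0.20), from 2050 and 2621 to 274 and 280. The signal was 1970 and 2472 with Dex alone and 605 and 710 with both. Dex under LPS raised it by 1.46 ± 0.20, and the interaction was 1.96 ± 0.28 (adjusted p = 0.0204), though a second probe at 0.15 ± 0.30 was not called. Zfp94, a zinc finger protein gene, fell with LPS from 330 and 370 to 211 and 217 and stood at 339 and 399 with both (interaction 1.66 ± 0.30).

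Rasgrp1, an activator of Ras that responds to diacylglycerol, had signals of 874 and 896 with ethanol, 374 and 286 with Dex, 9948 and 8435 with LPS and 7733 and 9777 with both. The LPS pairs overlapped, and Dex changed the level only in their absence (-2.47 ± 0.19 without LPS and -0.17 ± 0.19 under it). Its interaction of 2.30 ± 0.27 therefore came from the arrays without LPS, was turned in sign on the linear scale (-235 units), and was not shared by 2 further probes (-0.80 ± 0.28 and -1.0 ± 0.38, neither called). The mean of its probes gave 0.17 ± 0.25 (adjusted p = 0.776). Rims3, a synaptic vesicle release gene, was also lowered by Dex without LPS (-1.13 ± 0.18) and not called under it (0.28 ± 0.18). Its signals were low, with 238 and 267 for ethanol, 209 and 191 for Dex (detected on 1 of the 2 arrays), 394 and 403 for LPS and 479 and 620 for both. Unlike in Rasgrp1 the 2 pairs with LPS did not overlap, and the interaction (1.41 ± 0.25) kept its sign on the linear scale (142 units).

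Mterf1b, a mitochondrial transcription termination factor gene, was lowered by Dex alone (-1.03 ± 0.21), whereas the difference under LPS was 0.63 ± 0.21 (not called), and its interaction was 1.67 ± 0.29. Ndufaf3, an assembly factor of respiratory complex I, stood at 253 and 333 with ethanol, 294 and 262 with Dex, 226 and 212 with LPS and 323 and 400 with both (1.59 ± 0.24). For it no single effect was called.

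**Figure D3:**
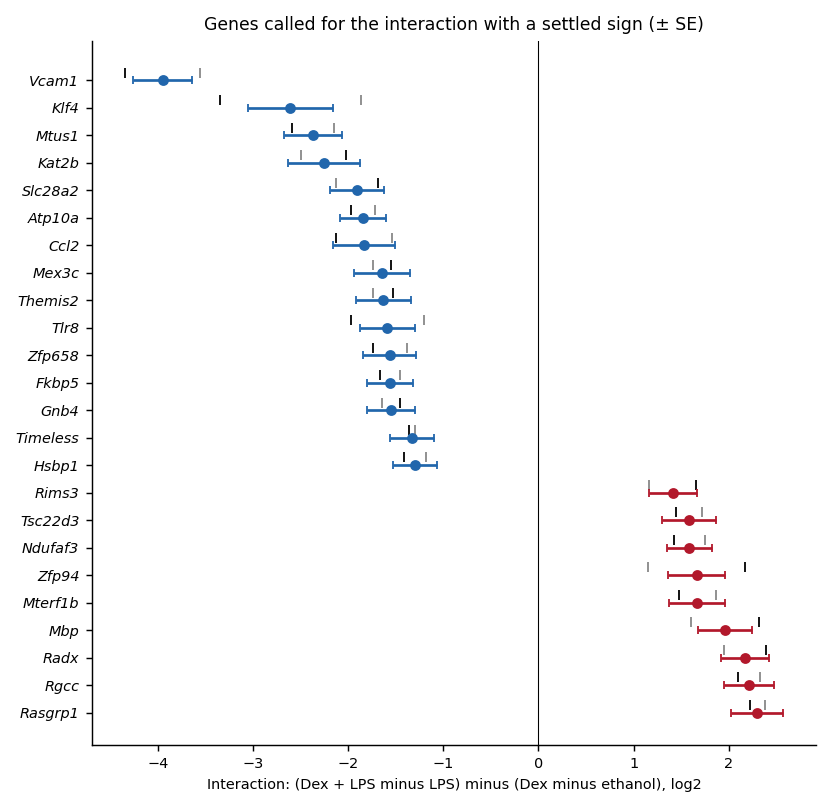
Interaction of the 24 called genes with a settled sign, as the log2 estimate ± SE (points and bars). The short black and grey marks are the values from the first and from the second replicates alone. The estimates run from -3.95 for Vcam1 to 2.30 for Rasgrp1. All marks lie on the same side of 0 as the estimate, which is no separate test, since a call needs a small spread between arrays.

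All 43 called genes had the same sign in the values from the first and from the second replicates. A call needs a small spread between arrays, so this agreement is no separate test. Over all tested genes the 2 replicate values correlated at 0.32. The calls themselves were fragile. With any 1 of the LPS replicate 1, Dex plus LPS replicate 1 or Dex plus LPS replicate 2 arrays left out, Vcam1 was the 1 gene of the 24 that kept its call, and without Dex replicate 2 the settled calls became 201 above and 121 below. For 15 of the 24 the fit without Dex replicate 2 was the only one of the 8 that kept the call. Sizes near background also moved with the processing. Without background correction the interaction was -1.13 for Atp10a, -1.24 for Kat2b, -0.78 for Mex3c, 0.85 for Ndufaf3, 0.70 for Rims3, -0.86 for Zfp658 and 0.92 for Zfp94, of which Atp10a and Kat2b kept their calls.

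For the other 19 called genes the sign was not settled, and no synergy or antagonism is claimed. Apart from Ifnb1, Il6 and Il1b they were named after their values were seen. In 16 of them neither the ethanol nor the Dex arrays detected the gene as a pair, so that a Dex effect without LPS could not be measured. What could be measured was the Dex effect under LPS, where both pairs with LPS detected the gene. That was not so for Clic5, Gstt4, Fam3b, Lysmd2, Akap12 and Gramd4. Ifnb1, the interferon beta gene, gave 1173 and 1161 with LPS and 197 and 203 with both, at the level of the ethanol arrays (169 and 222, with 1 of 2 detected). Il6 went from 4121 and 3874 to 1223 and 1868 (-1.68 ± 0.18), Ptgs2, the inducible prostaglandin synthase gene, from 1767 and 1727 to 690 and 826, and Mycl, a MYC family gene, from 1837 and 1937 to 490 and 612.

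The keratin gene Krt16 (-2.66 ± 0.23), Tnfsf10, for the death ligand TRAIL (-2.26 ± 0.23), Il23a, for a subunit of interleukin 23 (-1.77 ± 0.18), and Kynu, for kynureninase of tryptophan breakdown (-1.71 ± 0.20), were likewise lower under LPS with Dex. Clic5, Gstt4, Fam3b, Lysmd2 and Akap12 were detected as pairs with LPS alone and with no other treatment. Tnfsf14, for the cytokine LIGHT, was detected with Dex alone (297 and 247) and with no other treatment (131 to 184). Each of these lay below the expectation as fitted.

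Above the expectation, Ptx3, a secreted pattern recognition molecule, rose from 498 and 500 with LPS to 3024 and 4227 with both, and was not detected without LPS (103 to 150). Trem1, an amplifying receptor of myeloid cells, went from 234 and 211 to 622 and 985 (2.45 ± 0.20). The second probe's interaction was called for Ptx3 (2.27 ± 0.25) and not for Trem1 (0.99 ± 0.31, adjusted p = 0.181). Gramd4 was detected as a pair only with both agents (206 and 242). Il1b, for interleukin 1 beta, and Rsad2, for the antiviral protein viperin, were saturated on the LPS arrays (61078 and 65608, and 65198 and 68786). Dex lowered them without LPS (-1.67 ± 0.16 and -1.70 ± 0.16), and under LPS their difference (-0.40 ± 0.16 and -0.28 ± 0.16) rests on saturated spots.

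**Figure D4:**
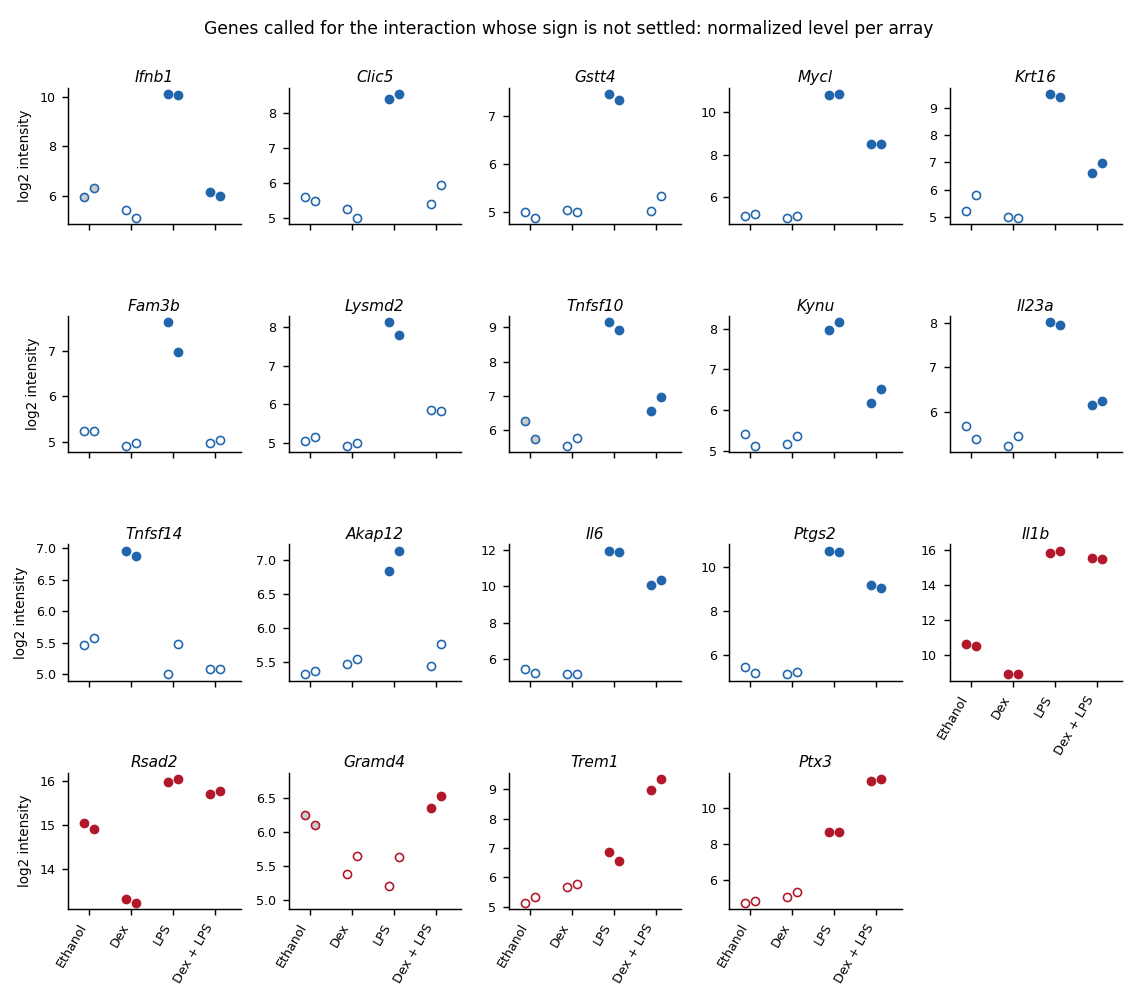
Normalized log2 intensity per array of the 19 called genes whose sign was not settled, in blue where the fitted interaction was negative and in red where it was positive. Filled points belong to pairs with the gene detected on both arrays, grey points on 1 and white points on neither. In most panels the ethanol and Dex points are white, and in Il1b and Rsad2 the LPS points lie near 16, at the top of the range.

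The interaction was then read over 17 lists of genes, against the 0.552% called over all genes. Counts at an unadjusted p under 0.05 stand against 9.17% above and 7.21% below over all genes. Of 23 known glucocorticoid-induced genes Tsc22d3 was called above and Fkbp5 and Klf4 below the expectation (median -0.06). At an unadjusted p under 0.05, 4 lay above and 5 below. Dusp1, the phosphatase that switches off MAP kinases, rose with Dex without LPS (1.57 ± 0.17) and under it (1.51 ± 0.17), with an interaction of -0.06 ± 0.24 (adjusted p = 0.929). Per1, a clock gene with a glucocorticoid response element, gave 2.64 ± 0.32 and 1.80 ± 0.32 (interaction -0.84 ± 0.46, adjusted p = 0.382). The efferocytosis receptor gene Mertk gave 1.78 and 0.61 (-1.18 ± 0.24, adjusted p = 0.0663). Fgr, with the highest interaction of the list, went the other way, with -0.36 and 1.30 (1.66 ± 0.35, adjusted p = 0.0678). Of 10 genes of the receptor's own machinery Fkbp5 alone was called. Nr3c1, the receptor gene, was detected on both arrays with LPS alone and on no other pair (interaction -0.43 ± 0.29).

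Of 17 inflammatory cytokine genes Il6 and Il23a were called below and Il1b above, none with a settled sign, and the median interaction was -0.69. At an unadjusted p under 0.05, 8 lay below and 2 above, against 7.21% below and 9.17% above over all genes. Only 9 of the 17 were detected on every pair of arrays, and the median of those was -0.06. Il15, a growth factor of lymphocytes and natural killer cells, was detected throughout and gave -1.22 ± 0.28 (adjusted p = 0.093). Tnf had an interaction of 0.63 ± 0.27 with the LPS arrays saturated. Of 15 chemokine genes Ccl2 was called below (median -0.23), and Cxcl10, saturated with LPS, gave 1.95 ± 0.37 (adjusted p = 0.0517).

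Of 33 genes listed as interferon-stimulated, Ifnb1, the gene of interferon beta itself, was called below and Rsad2 above, neither settled. The median was -0.07, with 3 below and 3 above at an unadjusted p under 0.05. Oasl1, an antiviral gene of the family, fell with Dex both without LPS (-1.70) and under it (-1.09), with an interaction of 0.60 ± 0.24 (adjusted p = 0.266). Of 22 genes of Toll-like receptor signalling Tlr8 was called below, with 6 below and 1 above at an unadjusted p under 0.05 and a median of -0.35. Tlr4 itself, the LPS receptor gene, gave -0.87 ± 0.27 (adjusted p = 0.17), and its partner Ly96 -0.77 ± 0.28 (adjusted p = 0.221). Of 19 inflammatory enzymes and effectors Ptgs2 was called below, of 17 acute-phase and secreted defence genes Ptx3 above and of 13 lectin, TREM and formyl peptide receptor genes Trem1 above, all 3 without a settled sign.

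With limma, 0 members were called among 22 NF-kB subunits and feedback regulators (1 above and 4 below at an unadjusted p under 0.05), 12 immediate-early and AP-1 genes (1 and 3), 21 genes of phagocytosis and efferocytosis (0 and 4), 12 of MHC class II and co-stimulation (2 and 2), 10 of alternative activation (0 and 1), 25 of the cell cycle (2 and 4), 12 of cholesterol synthesis and efflux (1 and 1) and 17 of glycolysis and hypoxia (1 and 2). Over all genes the shares at that unadjusted cut-off were 9.17% above and 7.21% below. Nfkbia, the NF-kB inhibitor that NF-kB itself induces, gave -0.53 ± 0.24 (adjusted p = 0.31). Zfp36, which destabilizes cytokine mRNAs, gave -1.10 ± 0.25 (adjusted p = 0.0849), and Cd40, a co-stimulatory receptor, 1.08 ± 0.27 (adjusted p = 0.105). Medians ran from -0.49 for the immediate-early genes to 0.44 for the cholesterol genes, against 0.06 over all genes.

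**Figure D5:**
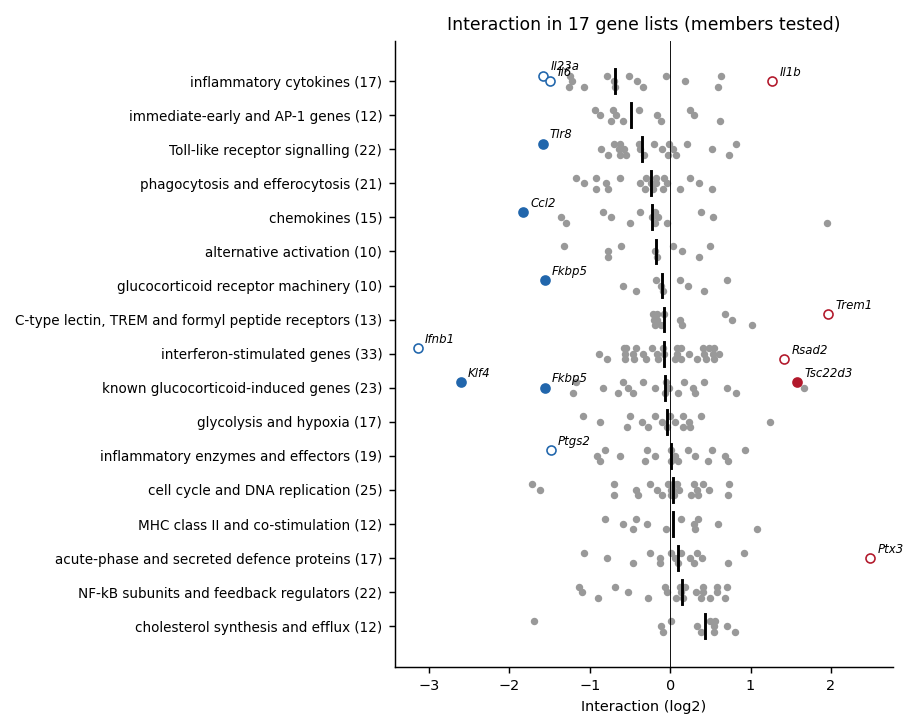
Interaction of each tested member of 17 gene lists (points, log2) with the list's median (black bar) and the number of members tested in brackets. Called members are named and coloured, filled where the sign was settled and open where it was not. The list medians lie between -0.69 for the cytokines and 0.44 for the cholesterol genes.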

How the data were processed

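Per the file headers, the unnormalized table the authors deposited for the 6 h experiment gives, for each of the 8 arrays, a linear signal intensity with its detection p-value. GenomeStudio is named in the submitters' processing notes, without a version. The 6 h samples were extracted on columns with DNase treatment and labelled as biotinylated cRNA, per the labels' protocols. A second deposited table holds intensity and detection p-value columns that its headers call cubic spline-normalized by the authors, and the authors' processed value table holds values that behave as log2 differences centred per probe. Set against the unnormalized arrays, its slope was 0.955 to 0.994, its correlation 0.960 to 0.982 and its column medians -0.197 to 0.163, with 4003 probes empty. The log base rests on that slope. Both served only as alternatives. The spline table's ranks correlated at 0.863 to 0.895 with the unnormalized columns of the same name, and its Fkbp5 values were 361 to 464 on all 8 arrays, so it holds no simple transform of the same values. For 6 of its 8 columns an array of another name correlated more highly, so whether its columns hold the same arrays is not known, which limits its use as an alternative. In all, 56 per-sample columns were not used.

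Background was corrected with limma (version 3.58.1, R version 4.3.3) by the normexp model, with the control level inferred from detection p-values and an offset of 16, followed by quantile normalization and log2. A gene was tested where a probe was detected (p under 0.05) on both arrays of any group. Its probe with the highest mean stood for it (2032 genes had several). A group was saturated where both arrays reached 80% of the array's highest signal. Genes were named from the platform annotation, which gave 1 symbol for 23846 probes, several for 0, and did not list 1851. Of those named, 23839 were matched to RefSeq. Of 722 detected unlisted probes, 6 were called, all below the expectation, and they stay unnamed.

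One mean per group was fitted on the 8 arrays with lmFit and eBayes, with Benjamini-Hochberg adjustment over all genes. The script was tested on simulated data. Named were called genes with a settled sign and equal signs in both replicates (up to 15 a direction, with called list members), plus Fkbp5, Tsc22d3, Per1, Dusp1, Tnf, Il1b, Il6, Cxcl10, Ifnb1, Nr3c1 and Nfkbia as checks. Other genes that missed the threshold were named from the lists after their values were seen. The genes, lists and tests were chosen with earlier results of these data known. Replicate numbers did not pair the arrays (correlations of deviations -0.22 to 0.01).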

Additional observations from a re-analysis of the deposited data

Results flagged for a closer look

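Vcam1 and Kat2b stand out because Dex was called in opposite directions without and under LPS, and the test of that difference was the interaction itself. It was -3.95 for Vcam1 and -2.26 for Kat2b. For Vcam1 the normalized level on each LPS array lay above that on each Dex plus LPS array, and the ethanol arrays lay below the Dex arrays. Kat2b rests on signals of 170 to 499 and on 1 ethanol array that detected it.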

How the results depend on the processing

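The p-values rest on 2 technical arrays a group. In the order above, below, settled above, settled below and curbed LPS rise (14, 29, 9, 15 and 11 as reported), calls were 15, 77, 9, 56 and 39 with median scaling, 20, 51, 15, 39 and 19 without background correction, and 26, 59, 20, 41 and 20 with an offset of 50. They were 8, 12, 5, 6 and 3 without the detection filter, which tests more genes, 16, 47, 9, 30 and 17 with the mean of a gene's probes, 24, 52, 18, 40 and 22 with a trended robust prior, and 17, 70, 13, 61 and 32 in the authors' processed values. With the replicate number as a block they were 6, 10, 4, 4 and 3, and the numbers do not pair the arrays. With genes detected on all 8 arrays, 24 were settled below. Upward synergy (1) became 2 with median scaling or without the 2-fold minimum. Downward synergy (2) became 0 without background correction and 1 without the filter, with the mean of probes or with the block.

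Leaving out 1 array gave 1 to 217 above, 2 to 159 below, 0 to 201 and 1 to 121 settled, 1 to 50 curbed, 0 to 1 upward and 0 to 4 downward. The high ends came from the fit without Dex replicate 2. Chosen after seeing the data, leaving out replicate 1 of both ethanol and Dex gave 5, 8, 4, 4 and 4 with 0 downward, and replicate 2 of both gave 478, 430, 421, 325 and 128 with 2 upward and 5 downward. A lone array is assumed to vary like the other groups. The cause was not tested.

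In the cubic spline table, whose columns may not hold the same arrays, limma called 0 genes in every class (964 at an unadjusted p under 0.05). Signs turned there for Clic5 (0.05), Fam3b (0.14), Fkbp5 (0.03), Gstt4 (0.14), Il23a (0.08), Krt16 (0.01), Kynu (0.11), Lysmd2 (0.03), Mycl (0.05), Tnfsf10 (0.04), Tnfsf14 (0.35), Ndufaf3 (-0.14), Ptx3 (-0.17), Rasgrp1 (-0.01), Rsad2 (-0.37), Trem1 (-0.20) and Tsc22d3 (-0.27). On the linear scale Rasgrp1 (-235) and Tsc22d3 (-2598) turned. In every other log2 setting each called gene that was tested kept its sign (24 of the 43 were tested with genes detected on all 8 arrays), and Vcam1, Mtus1 and Rgcc kept their calls in each that used all 8 arrays. Outside the spline and linear settings and the fits without 1 array, the interaction of 11 of the 24 genes with a settled sign moved by over 1.5 times in at least 1 setting. These were 7 without background correction, and 9 in the authors' processed values, namely Gnb4 (-0.92), Atp10a (-0.93), Kat2b (-1.13), Mex3c (-0.69), Zfp658 (-0.73), Ndufaf3, Rims3 and Zfp94 (0.89 each) and Rasgrp1 (1.47). With the mean of probes Mbp gave 1.06 and Radx 1.31, neither called. Kat2b gave -1.44 with genes detected on all 8 arrays and -1.47 without replicate 2 of both ethanol and Dex, not called in either.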
